A study of Mus musculus with 12 samples.

Results

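Complex I, or NADH:ubiquinone oxidoreductase, is the entry enzyme of the mitochondrial respiratory chain. It takes electrons from NADH, passes them to ubiquinone and pumps protons across the inner membrane, and neurons depend on this chain for most of their ATP. The N module binds and oxidizes NADH, the Q module hands the electrons to ubiquinone, and both form the arm that reaches into the matrix, while the proximal and distal parts of the membrane arm hold the proton channels and a shell of small accessory subunits. Loss of complex I function is a long-known theme in Parkinson's disease. The nuclear genes of the complex were followed in cerebellar granule neuron (CGN) cultures of mice that lack interferon-β (IFN-β). They were chosen by name: every gene whose symbol begins with Ndufa, Ndufb, Ndufc, Ndufs or Ndufv and a digit, and Ndufab1, without the assembly factors and without Ndufs5. This gave 35 of the 18193 genes measured.

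The arrays held 4 groups of 3 cultures each. They were Ifnb-/- CGNs with recombinant IFN-β (rIFN-β, given over 24 hours at 100 U/ml), Ifnb+/+ CGNs with rIFN-β, untreated Ifnb-/- CGNs and untreated Ifnb+/+ CGNs. All cultures came from cerebella of pups 7 days old of the B10.RIII strain and were lysed after 3 days in culture, the Ifnb+/+ mice were littermates, and in Ifnb-/- mice the gene is deleted in every cell. CGNs are glutamatergic and by far the most numerous cells of the cerebellum. Values are log2 intensities, 1 array per culture, so that 1 unit is a 2-fold difference. A gene with several probe sets of its own was read from the brightest of them, and levels of different probe sets cannot be set against each other. One limma model held all 12 arrays, p-values were adjusted over the 18193 genes by Benjamini-Hochberg, and a gene counted as called when its adjusted p was under 0.05. Whether the 3 cultures of a group came from separate litters is not given in the sources used here, so p-values measure the spread between these cultures.

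By structural position, the 35 genes were 9 of the N module (Ndufv1, Ndufv2, Ndufv3, Ndufs1, Ndufs4, Ndufa2, Ndufa6, Ndufa7 and Ndufa12), 5 of the Q module (Ndufs3, Ndufs7, Ndufs8, Ndufa5 and Ndufa9), 7 of the proximal membrane arm (Ndufa1, Ndufa3, Ndufa8, Ndufa10, Ndufa13, Ndufc1 and Ndufc2) and 12 of the distal membrane arm (Ndufb1 to Ndufb11 and Ndufab1). The name rule also took in Ndufa4, whose protein is now placed with cytochrome c oxidase, and its paralogue Ndufa4l2, which is known as a hypoxia-induced gene. Neither is a structural subunit of complex I. The 7 mitochondrially encoded ND subunits were not analysed here. Ndufa11 and Ndufs6 had no probe set that names them alone, and they are described with their near-identical copies further on.

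All but a few of the 35 genes read well up on the scale. The array medians over all probe sets lay between 4.33 and 4.42. Ndufb11, a small membrane subunit of the distal arm, was the brightest, with a mean over the 12 arrays of 10.91. Ndufb4, another subunit of the distal arm, was the dimmest at 2.99 and lay below the array median on every array, so this probe set shows no clear signal of the gene. Ndufa4l2 had a mean of 4.28 and Ndufb1 of 6.14, and the other members had means of at least 8.43.

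Promoters of the RefSeq annotation (GRCm38.p6, 250 bases before and 50 from the start onward) were found for 31 of the 35 genes. They were searched on both strands for the letters of 4 motifs known from promoters of respiratory genes. AAGATGGC, a YY1 motif, stood in 6 of the 31 (19.4%, against 2.88% of all 27025 promoters), and GCGC, any base and TGCGC in a row, an NRF1 motif, in 4 (12.9%, against 4.78%). GGGCGG, an SP1 motif, stood in 15 (48.4%, against 35.9%) and CCGGAAG, an ETS motif, in 4 (12.9%, against 9.12%). The median GC content was 59.3% in the promoters of the 31 genes and 52.7% in all promoters. A match is a description of letters, and these data hold no measurement of binding.

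The 6 YY1 matches are printed because they lie at nearly the same place. Each runs in the direction of its gene and begins 23 to 39 bases into the transcript, counting the annotated start as 1. Among all promoters, 259 of 800 copies (32.4%) lie after the start in that direction. The letters of the motif hold the triplet ATG, and whether this is the start codon of a gene was not read. The windows of 30 bases, with the motif in capitals, are Ndufa3 at chr7:3617384-3617413 (plus strand), Ndufa9 at chr6:126849097-126849126 (minus strand), Ndufb8 at chr19:44555393-44555422 (minus strand), Ndufc1 at chr3:51408915-51408944 (minus strand), Ndufs4 at chr13:114388045-114388074 (minus strand) and Ndufs7 at chr10:80249462-80249491 (plus strand).

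Ndufa3: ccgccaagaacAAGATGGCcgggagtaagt
Ndufa9: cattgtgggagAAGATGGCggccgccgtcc
Ndufb8: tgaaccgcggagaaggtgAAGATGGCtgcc
Ndufc1: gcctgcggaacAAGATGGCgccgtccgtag
Ndufs4: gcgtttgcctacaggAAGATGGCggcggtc
Ndufs7: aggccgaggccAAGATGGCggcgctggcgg

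For the NRF1 motif, a window of 30 bases of Ndufa5 (chr6:24527697-24527726, minus strand) holds it in reverse orientation from position −190 on. The window of Ndufa8 (chr2:36049309-36049488, minus strand) runs over 180 bases, from position −150 to 30, and has an SP1 motif on each strand and the NRF1 motif from position −30 on. Both are printed because each is among the 4 genes with the smallest p in a pairwise comparison below. Neither was called, and the adjusted p of Ndufa8 in the limma fit between the genotypes with rIFN-β was 0.988. Ndufa6 and Ndufb4, which also hold the NRF1 motif, are not printed. A link between motif and expression was not tested, and all motif letters are in capitals.

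Ndufa5: tgtgtgagctGCGCAGGCGCaaatctacct
Ndufa8: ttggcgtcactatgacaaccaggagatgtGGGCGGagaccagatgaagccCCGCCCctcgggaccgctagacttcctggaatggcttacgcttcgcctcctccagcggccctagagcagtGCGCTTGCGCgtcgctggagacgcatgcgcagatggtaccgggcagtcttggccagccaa

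Between untreated Ifnb-/- and Ifnb+/+ CGNs, 25 of the 35 genes (71.4%, against 65.5% of all genes) had a lower mean in Ifnb-/- and 10 (28.6%, against 34.5%) a higher one. Their median log2 fold change was −0.22, against −0.09 over all genes, and single genes ranged from −0.55 to 0.58. None of the 35 was called, where 0.115% of all genes were (21 of 18193). With p taken before adjustment, 3 passed 0.05 as higher (8.57%, against 8.40% of all genes) and 7 as lower in Ifnb-/- (20.0%, against 12.8%), together 28.6% of the 35 against 21.2% of all genes. Once arrays were centred on their medians, 5 passed as higher and 2 as lower, so this split depends on the scaling. The share of all genes at that p after centring was not counted. The counts after centring, here and below, therefore show nothing particular to complex I. The median of the 35 was still negative at −0.14, against −0.01 over all genes. The arrays of the genotypes did not overlap for 12 genes that were lower in Ifnb-/- (34.3%, against 18.1% of all genes) and for Ndufa5 and Ndufb4, which were higher (5.71%, against 10.1%).

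Ndufv1, which encodes the flavoprotein that binds FMN and takes the electrons from NADH, read 9.13, 9.12 and 9.16 in Ifnb-/-, against 9.996, 9.25 and 9.73 in Ifnb+/+. All 3 Ifnb-/- arrays lay below all 3 Ifnb+/+ arrays and within 0.05 of each other. The log2 fold change was −0.52 (standard error 0.17, adjusted p = 0.186), the smallest p of the 35. Ndufs8, an iron-sulfur subunit of the Q module, read 9.55, 9.42 and 9.62 in Ifnb-/-, against 10.47, 9.57 and 10.18 in Ifnb+/+. Replicate 2 of Ifnb+/+ fell among the Ifnb-/- arrays, and the log2 fold change was −0.55 (standard error 0.19, adjusted p = 0.193). Ndufa10, an accessory subunit of the proximal arm that resembles nucleoside kinases, read 9.51, 9.51 and 9.58 in Ifnb-/-, against 10.18, 9.65 and 10.04 in Ifnb+/+. The groups did not overlap, and the log2 fold change was −0.42 (standard error 0.15, adjusted p = 0.197).

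Ndufc2, a membrane subunit of the proximal arm, ran the other way, with 10.96, 10.79 and 10.90 in Ifnb-/-, against 10.40, 10.80 and 10.52 in Ifnb+/+. The log2 fold change was 0.31 (standard error 0.12, adjusted p = 0.205), and replicate 2 of Ifnb+/+ lay above the lowest Ifnb-/- array. Ndufa5, an accessory subunit at the foot of the matrix arm, read 9.40, 9.41 and 9.41 in Ifnb-/-, against 8.25, 9.38 and 8.86 in Ifnb+/+ (log2 fold change 0.58, standard error 0.24, adjusted p = 0.211). The Ifnb-/- arrays were nearly equal and the Ifnb+/+ arrays were spread over more than 1 unit. In all of these genes the Ifnb+/+ array nearest to Ifnb-/- was replicate 2 and the farthest was replicate 1. Ndufb6, the single member on chromosome 4, which also carries the deleted gene, differed by −0.20 (standard error 0.13, adjusted p = 0.367).

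The Q module had the lowest median of the 4 structural positions. The median log2 fold change was −0.10 in the N module (range −0.52 to 0.46), −0.34 in the Q module (−0.55 to 0.58), −0.22 in the proximal arm (−0.42 to 0.31) and −0.23 in the distal arm (−0.45 to 0.30). Of the 12 distal arm genes, 11 had a lower mean in Ifnb-/-, the exception being the dim Ndufb4. In the N module 4 of 9 had a higher mean in Ifnb-/-, among them Ndufa6, which read 8.63, 8.53 and 8.71 in Ifnb-/-, against 7.78, 8.60 and 8.12 in Ifnb+/+. Differences between modules were not tested.

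**Figure D1:**
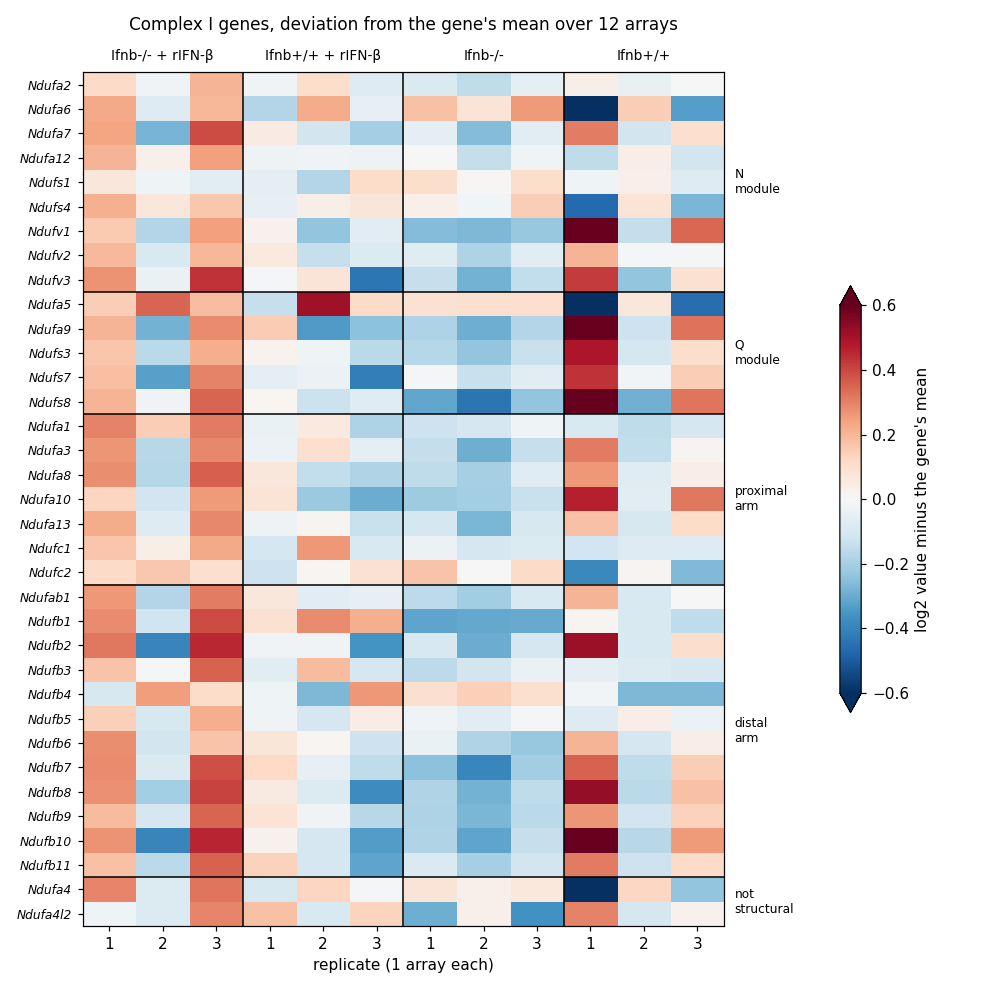
Deviation of each of the 35 genes (rows, by structural position) from its own mean over 12 arrays, on the log2 scale, for each array (columns, 3 replicates per group). Colours are clipped at 0.6 in either direction. Most rows are red in replicates 1 and 3 of Ifnb-/- with rIFN-β and in replicate 1 of Ifnb+/+ and blue in untreated Ifnb-/-, while Ndufa4, Ndufa5, Ndufa6, Ndufs4 and Ndufc2 are blue in replicate 1 of Ifnb+/+.

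With rIFN-β in Ifnb-/- CGNs, 32 of the 35 genes (91.4%, against 63.6% of all genes) had a higher mean than in untreated Ifnb-/-, and Ndufa6, Ndufs1 and Ndufb4 a lower one (8.57%, against 36.4%). Their median log2 fold change was 0.27, against 0.07 over all genes. None was called, where 1.67% of all genes were, and before adjustment 8 passed 0.05, all as higher (22.9% of the 35, against 14.6% of all genes in either direction, 9.16% higher and 5.44% lower). The arrays did not overlap for 14 genes, all higher with rIFN-β (40.0%, against 20.3% of all genes higher and 12.6% lower). Centring each array on its median moved the median of all genes to −0.03 and that of the 35 to 0.17. It left 2 of the 35 that passed 0.05 before adjustment, with the share of all genes not counted.

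Ndufb1, a small subunit of the distal arm, read 6.43, 6.03 and 6.54 with rIFN-β in Ifnb-/-, against 5.83, 5.84 and 5.84 in untreated Ifnb-/-. The groups did not overlap, and the log2 fold change was 0.49 (standard error 0.13, adjusted p = 0.0908), the smallest adjusted p of any member in the 6 comparisons. Without replicate 2 of Ifnb-/- with rIFN-β it was 0.65 with an adjusted p of 0.0194, so 1 array decided whether Ndufb1 passed. Ndufa1, a small X-linked membrane subunit needed for assembly, read 10.87, 10.72 and 10.88 with rIFN-β, against 10.45, 10.47 and 10.54 untreated. Its log2 fold change was 0.34 (standard error 0.10, adjusted p = 0.138), again with no overlap.

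Ndufb7, a subunit of the distal arm on the intermembrane space side, read 10.27, 9.90 and 10.37 with rIFN-β in Ifnb-/-, against 9.74, 9.59 and 9.77 in untreated Ifnb-/- (log2 fold change 0.48, standard error 0.16, adjusted p = 0.178). Ndufs8 read 10.06, 9.84 and 10.21 with rIFN-β, against the untreated values given above, which is 0.51 more (standard error 0.19, adjusted p = 0.245). In both genes every rIFN-β array lay above every untreated one and replicate 2 was the lowest of the rIFN-β arrays. In a fit of the Ifnb-/- arrays alone, Ndufs8 passed (adjusted p = 0.0427) and 7.01% of all genes were called. The module medians were 0.21 in the N module, 0.25 in the Q module, 0.30 in the proximal arm and 0.29 in the distal arm, and all genes of the Q module and the proximal arm had a higher mean with rIFN-β.

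With rIFN-β in Ifnb+/+ CGNs, 23 of the 35 genes (65.7%, against 56.0% of all genes) had a lower mean than in untreated Ifnb+/+ and 12 (34.3%, against 44.0%) a higher one. The median log2 fold change was −0.06, against −0.03 over all genes. None was called, where 3.14% of all genes were, and before adjustment Ndufa5 passed 0.05 as higher (2.86%, against 8.81% of all genes) and Ndufa10 as lower (2.86%, against 11.1%), together 5.71% of the 35 against 19.9% of all genes. After centring of the arrays, 1 passed as higher and 3 as lower, with the share of all genes not counted. The median of the 35 was then −0.10, against −0.07 over all genes. Ndufa5 read 9.17, 9.82 and 9.43 with rIFN-β in Ifnb+/+, against 8.25, 9.38 and 8.86 untreated (log2 fold change 0.64, standard error 0.24, adjusted p = 0.164), with overlap. Ndufa10 read 9.80, 9.50 and 9.42 with rIFN-β, against 10.18, 9.65 and 10.04 untreated (log2 fold change −0.39, standard error 0.15, adjusted p = 0.199), and the groups overlapped.

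Ndufb1 read 6.24, 6.43 and 6.36 with rIFN-β in Ifnb+/+, against 6.16, 6.05 and 5.99 in untreated Ifnb+/+ (log2 fold change 0.27, standard error 0.13, adjusted p = 0.269). It was the single gene whose rIFN-β arrays all lay above the untreated ones, and Ndufs7, an iron-sulfur subunit of the Q module, the single gene whose rIFN-β arrays all lay below them (2.86% of the 35 in each direction, against 6.67% of all genes higher and 9.28% lower). Ndufa9, an accessory subunit of the dehydrogenase family in the matrix arm, read 9.68, 9.18 and 9.28 with rIFN-β, against 10.20, 9.40 and 9.85 untreated, a difference of −0.44 (standard error 0.21, adjusted p = 0.270). In Ifnb-/- the same gene read 9.72, 9.24 and 9.80 with rIFN-β, against 9.33, 9.23 and 9.35 untreated, and the groups overlapped there too.

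The interaction, which is the rIFN-β effect in Ifnb-/- minus that in Ifnb+/+, was positive in 28 of the 35 genes (80.0%, against 63.5% of all genes) and negative in 7 (20.0%, against 36.5%). Its median was 0.33, against 0.11 over all genes. None was called, where 0.0220% of all genes were (4 of 18193), and before adjustment 11 passed 0.05, all as positive (31.4% of the 35, against 15.3% of all genes in either direction, 10.1% positive and 5.21% negative). Ndufa10 had the smallest p, with an interaction of 0.66 (standard error 0.22, adjusted p = 0.323). So no gene of the complex was shown to respond differently to rIFN-β in the genotypes. The genes next in p were Ndufs8, Ndufb7 and Ndufv1. After centring of the arrays 4 of the 35 passed 0.05 before adjustment, with the share of all genes not counted. The median interaction was then 0.27, against 0.04 over all genes. Ndufv1 read 9.54, 9.21 and 9.63 in Ifnb-/- with rIFN-β, against 9.42, 9.15 and 9.32 in Ifnb+/+ with rIFN-β, and its interaction was 0.69 (standard error 0.25, adjusted p = 0.323).

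**Figure D2:**
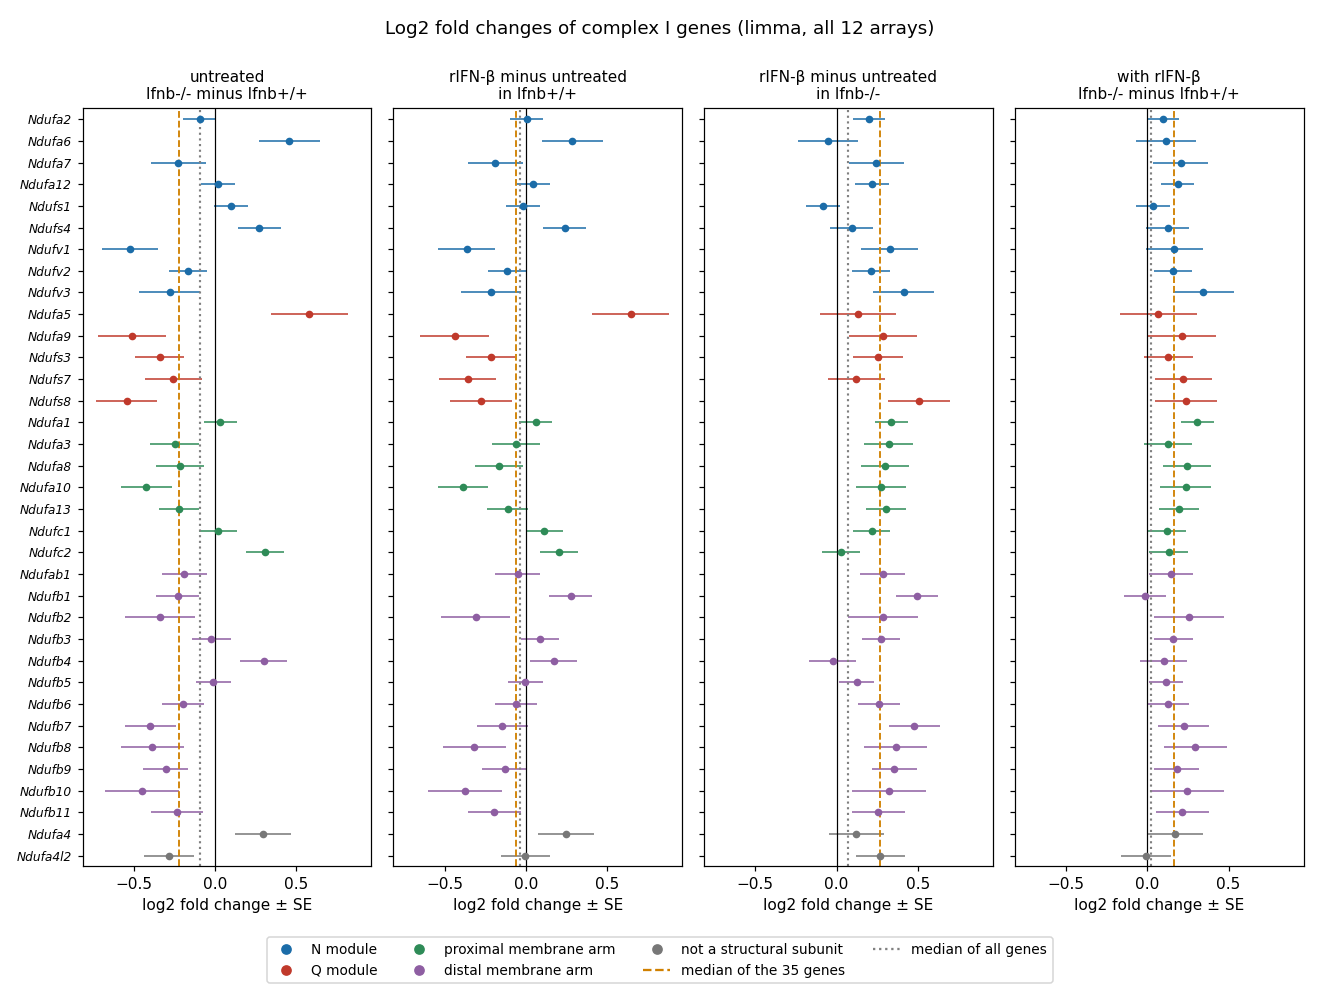
Log2 fold changes with standard errors (limma) of the 35 genes in 4 comparisons, 1 panel each, with genes coloured by structural position. Dashed lines mark the median of the 35 genes (−0.22, −0.06, 0.27 and 0.17 from left to right) and dotted lines that of all genes (−0.09, −0.03, 0.07 and 0.03). With rIFN-β in Ifnb-/-, 32 points lie right of 0.

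Between the genotypes with rIFN-β, 33 of the 35 genes (94.3%, against 56.9% of all genes) had a higher mean in Ifnb-/- than in Ifnb+/+, and Ndufb1 and Ndufa4l2 a lower one at −0.01 each (5.71%, against 43.1%). The median log2 fold change was 0.17, against 0.03 over all genes, and single genes reached no more than 0.35. None was called, where 0.0605% of all genes were, and Ndufa1 alone passed 0.05 before adjustment, as higher (2.86% of the 35, against 4.94% of all genes in either direction, 1.88% higher and 3.06% lower). Ndufa1 read 10.87, 10.72 and 10.88 in Ifnb-/- with rIFN-β, against 10.53, 10.63 and 10.38 in Ifnb+/+ with rIFN-β (log2 fold change 0.31, standard error 0.10, adjusted p = 0.614). The groups did not overlap for Ndufa1, Ndufa12 and Ndufc2 (8.57% of the 35, against 4.64% of all genes), all higher in Ifnb-/-, and for no gene that was lower (3.47% of all genes).

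Ndufv3, a small accessory subunit beside the flavoprotein, read 10.06, 9.75 and 10.22 in Ifnb-/- with rIFN-β, against 9.78, 9.87 and 9.36 in Ifnb+/+ with rIFN-β (log2 fold change 0.35, standard error 0.19, adjusted p = 0.988). Ndufa12, a subunit where the N and Q modules meet, read 10.15, 9.98 and 10.19, against 9.92, 9.93 and 9.92 in Ifnb+/+ with rIFN-β. Its log2 fold change was 0.19 (standard error 0.10, adjusted p = 0.988), and the Ifnb+/+ arrays were nearly equal. Ndufa8, a subunit of the proximal arm on the intermembrane space side, read 9.82, 9.37 and 9.90, against 9.61, 9.39 and 9.36 in Ifnb+/+ with rIFN-β (log2 fold change 0.24, standard error 0.15, adjusted p = 0.988). Replicate 2 of Ifnb-/- with rIFN-β fell among the Ifnb+/+ arrays in Ndufv3 and Ndufa8.

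Set against untreated Ifnb+/+, Ifnb-/- with rIFN-β had a median log2 fold change of 0.08 over the 35 genes, against −0.01 over all genes. The mean was higher in 25 genes (71.4%, against 48.9% of all genes) and lower in 10 (28.6%, against 51.1%). None was called, where 1.86% of all genes were. Before adjustment 6 passed 0.05, all as higher (17.1% of the 35, against 15.3% of all genes in either direction, 7.10% higher and 8.20% lower), namely Ndufa1, Ndufa4, Ndufa5, Ndufa12, Ndufc2 and Ndufs4. Ndufa1 read 10.48, 10.41 and 10.46 in untreated Ifnb+/+, below all 3 arrays of Ifnb-/- with rIFN-β (log2 fold change 0.37, standard error 0.10, adjusted p = 0.0959). The arrays did not overlap for 5 genes, all higher (14.3%, against 8.64% of all genes higher and 8.50% lower). Ndufa5 read 9.46, 9.66 and 9.50 in Ifnb-/- with rIFN-β and was 0.71 higher than in untreated Ifnb+/+ (standard error 0.24, adjusted p = 0.173).

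Ndufc2 read 10.90, 10.95 and 10.88 in Ifnb-/- with rIFN-β, a log2 fold change of 0.33 against untreated Ifnb+/+ (standard error 0.12, adjusted p = 0.204), with no overlap. Ndufs4, an accessory subunit of the N module whose loss in mice causes a Leigh-like encephalopathy, read 8.75, 8.60 and 8.69 in Ifnb-/- with rIFN-β, against 8.07, 8.62 and 8.26 in untreated Ifnb+/+ (log2 fold change 0.37, standard error 0.13, adjusted p = 0.212). It read 8.56, 8.52 and 8.68 in untreated Ifnb-/-, so that 1 Ifnb+/+ array stood among the Ifnb-/- values and the others below them. The other probe sets of Ndufs4 with a mean of at least 5 gave 0.42 (standard error 0.11) and −0.06 (standard error 0.12) against untreated Ifnb+/+, the second of which lies within its standard error of 0. These comparisons share groups, so they do not support one another.

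**Figure D3:**
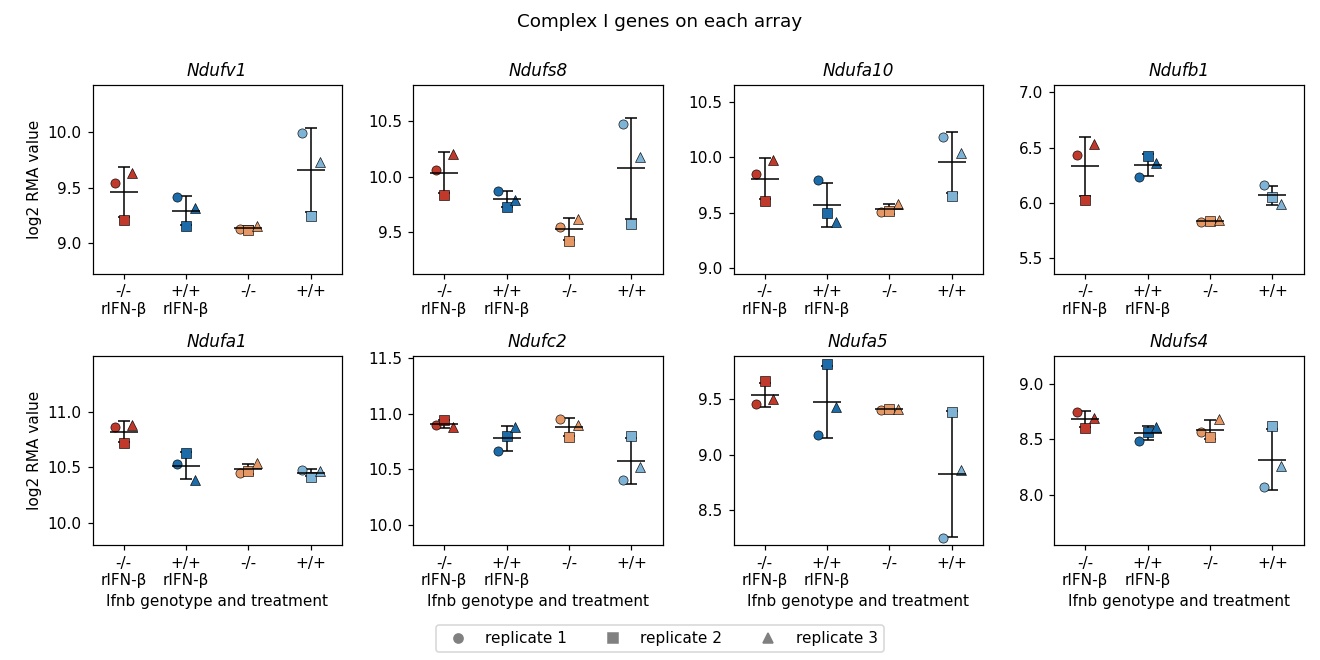
Log2 values of 8 complex I genes on each of the 12 arrays. Each symbol is a replicate, horizontal lines mark the mean of a group and whiskers its SD (n = 3), and the axes of all panels are equally long. Untreated Ifnb+/+ has widely spaced arrays in Ndufv1, Ndufs8, Ndufa5 and Ndufs4, where replicates 1 and 2 are the extremes, and Ndufa1 is above the other groups in Ifnb-/- with rIFN-β.

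Ndufb11 read 11.09, 10.75 and 11.27 in treated Ifnb-/-, 11.05, 10.81 and 10.60 in treated Ifnb+/+, 10.83, 10.71 and 10.80 in untreated Ifnb-/- and 11.23, 10.79 and 11.03 in untreated Ifnb+/+. These groups overlapped in each pairwise comparison, and its largest pairwise difference was 0.26 with rIFN-β in Ifnb-/- (standard error 0.16, adjusted p = 0.478). Ndufb4 read 2.89, 3.24 and 3.10 in treated Ifnb-/-, 2.96, 2.71 and 3.24 in treated Ifnb+/+, 3.08, 3.13 and 3.08 in untreated Ifnb-/- and 2.97, 2.71 and 2.71 in untreated Ifnb+/+. Its log2 fold change between the untreated genotypes was 0.30 (standard error 0.14, adjusted p = 0.252). Of the brighter probe sets that name Ndufb4 together with Ndufb4b and Ndufb4c, the brightest differed by −0.20 (standard error 0.20).

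Ndufa4 read 10.61, 10.23 and 10.64 in treated Ifnb-/-, 10.22, 10.45 and 10.30 in treated Ifnb+/+, 10.39, 10.35 and 10.38 in untreated Ifnb-/- and 9.71, 10.44 and 10.08 in untreated Ifnb+/+. The lowest array was again replicate 1 of Ifnb+/+, and the log2 fold change between the untreated genotypes was 0.30 (standard error 0.17, adjusted p = 0.319). Ndufa4l2 lay near the array median, at 4.26, 4.20 and 4.57 in treated Ifnb-/-, 4.46, 4.19 and 4.42 in treated Ifnb+/+, 3.99, 4.32 and 3.92 in untreated Ifnb-/- and 4.58, 4.18 and 4.31 in untreated Ifnb+/+. Its log2 fold change between the untreated genotypes was −0.28 (standard error 0.15, adjusted p = 0.291).

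The subunit gene Ndufa11 could be read only together with its copy Ndufa11b, with 8.78, 8.64 and 8.84 in untreated Ifnb-/-, against 9.74, 8.91 and 9.19 in untreated Ifnb+/+. The log2 fold change was −0.53 (standard error 0.21), and with rIFN-β in Ifnb-/- it was 0.53 (standard error 0.21). Ndufs6, a zinc-binding subunit of the N module, could be read only with Ndufs6b, with log2 fold changes of −0.21 between the untreated genotypes and 0.36 with rIFN-β in Ifnb-/- (standard error 0.12 each). None of these passed the adjustment over all probe sets. Of 18 members with several probe sets of a mean of at least 5, all probe sets of a gene had the same sign in 13 for the untreated genotypes, in 16 with rIFN-β in Ifnb-/- and in 14 with rIFN-β in Ifnb+/+. Ndufb2, a distal arm subunit, differed between its probe sets in all 6 comparisons.

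Most of the 35 genes had their high and low arrays in common. The median deviation from each gene's own mean was 0.20, −0.09 and 0.29 in treated Ifnb-/-, −0.01, −0.03 and −0.09 in treated Ifnb+/+, −0.11, −0.20 and −0.09 in untreated Ifnb-/- and 0.21, −0.09 and 0.03 in untreated Ifnb+/+. In Ifnb-/- with rIFN-β, replicate 2 was the lowest of its group in 31 of 35 genes (88.6%, against 46.5% of all genes). In untreated Ifnb+/+, replicate 1 was the highest in 26 of 35 genes (74.3%, against 56.8% of all genes) and the lowest in 8 (22.9%, against 30.3%). Replicate 3 lay between replicates 1 and 2 in 29 of 35 genes (82.9%, against 69.1% of all genes). The 8 genes lowest in replicate 1 were Ndufa4, Ndufa5, Ndufa6, Ndufa12, Ndufb5, Ndufc1, Ndufc2 and Ndufs4, which were singled out after their values were seen.

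The spread within groups was unequal. The median SD of the 35 genes was 0.20 in Ifnb-/- with rIFN-β, 0.13 in Ifnb+/+ with rIFN-β, 0.06 in untreated Ifnb-/- and 0.21 in untreated Ifnb+/+, and over all genes it was 0.15, 0.17, 0.09 and 0.20 in the same groups. The fit pools these spreads, so the standard error of a difference reflects all 4 groups. Leaving out replicate 2 of untreated Ifnb+/+ raised the calls among the 35 to 11 between the untreated genotypes (5 higher and 6 lower in Ifnb-/-), which is 31.4% of the 35 against 21.1% of all genes. It raised them to 6 with rIFN-β in Ifnb+/+ (17.1%, against 16% of all genes), 5 between Ifnb-/- with rIFN-β and untreated Ifnb+/+ (14.3%, against 6.15%) and 3 for the interaction (8.57%, against 6.8%), so that for rIFN-β in Ifnb+/+ and the interaction the shares were near those of all genes. Leaving out replicate 1 of untreated Ifnb+/+ in place of it gave 0 calls among the 35 and a median of −0.12 between the untreated genotypes. Leaving out replicate 2 of Ifnb-/- with rIFN-β raised the median with rIFN-β in Ifnb-/- to 0.38, against 0.09 over all genes. This rise follows from the choice of array, since replicate 2 was the lowest of its group in most of the 35 genes. Without replicate 1 the median was 0.22 (all genes 0.07), and without replicate 3 it was 0.18 (all genes 0.05).

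Over 37 nuclear genes of complexes II to V, the median log2 fold change was −0.21 for the untreated genotypes (complex I −0.22), −0.21 for rIFN-β in Ifnb+/+ (complex I −0.06), 0.22 with rIFN-β in Ifnb-/- (complex I 0.27) and 0.14 between the genotypes with rIFN-β (complex I 0.17), and none was called. With rIFN-β in Ifnb-/- the medians were 0.23 in complex III, 0.23 in complex IV and 0.21 in complex V, but 0.03 in the 4 genes of complex II. With rIFN-β in Ifnb+/+ they were −0.36, −0.21, 0.01 and −0.23 in complexes II, III, IV and V. Within Ifnb-/- with rIFN-β the median deviation of the 37 genes was −0.13 in replicate 2 and 0.22 in replicate 3, and it was 0.27 in replicate 1 of untreated Ifnb+/+. Of 20 assembly factors of complex I, 19 were measured and none was called, with medians of −0.18 between the untreated genotypes and 0.16 with rIFN-β in Ifnb-/-. Of 12 regulators of mitochondrial gene expression none was called, with medians of −0.04 and −0.06 in these comparisons. That rIFN-β acted is seen in the 12 measured of 15 interferon-stimulated genes, of which 12 were called higher with rIFN-β in Ifnb+/+ (median 5.33) and 9 in Ifnb-/- (median 3.95). Their median deviation was 1.06, 2.09 and 1.02 in Ifnb-/- with rIFN-β, so that replicate 2, where complex I was low, stood highest, and 1.83, 3.46 and 4.22 in Ifnb+/+ with rIFN-β.

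Markers of other cells also differed between arrays. In bulk cultures, fewer cells of a type and less RNA per cell cannot be told apart. The 8 astrocyte markers had a median deviation of −0.37, 0.93 and −0.39 in Ifnb-/- with rIFN-β, so that replicate 2, the array with low complex I values, had the highest astrocyte level. Their summed linear level was 2119 to 5883 in Ifnb-/- with rIFN-β, 2386 to 4331 in Ifnb+/+ with rIFN-β, 2634 to 2708 in untreated Ifnb-/- and 2659 to 3656 in untreated Ifnb+/+. The 14 microglial markers summed to 2034 to 2287, 1945 to 2412, 2534 to 2792 and 3595 to 4288 in the same groups, with Cx3cr1, P2ry12 and Itgam below the array median on all arrays. The 11 measured of 12 granule neuron markers summed to 13690 to 15320, 13640 to 15410, 16070 to 18120 and 11830 to 14080, and only Grin2c was below the array median on all arrays. The 6 endothelial markers had medians of −0.28 between the untreated genotypes (6 of 6 negative) and 0.26 with rIFN-β in Ifnb-/- (6 of 6 positive), and 5 of them, with Pecam1, Cdh5 and Cldn5, were below the array median on all arrays. They summed to 67.0 to 76.2 in Ifnb-/- with rIFN-β, 68.0 to 76.9 in Ifnb+/+ with rIFN-β, 60.7 to 61.9 in untreated Ifnb-/- and 67.8 to 78.9 in untreated Ifnb+/+. In the same comparisons the medians were 0.04 and −0.24 for 6 oligodendrocyte markers, −0.10 and −0.08 for 5 fibroblast markers and −0.21 and 0.19 for 2 erythroid markers, both of which were below the array median on all arrays. The part of these cells, and of the response to rIFN-β, in the complex I values was not tested.

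**Figure D4:**
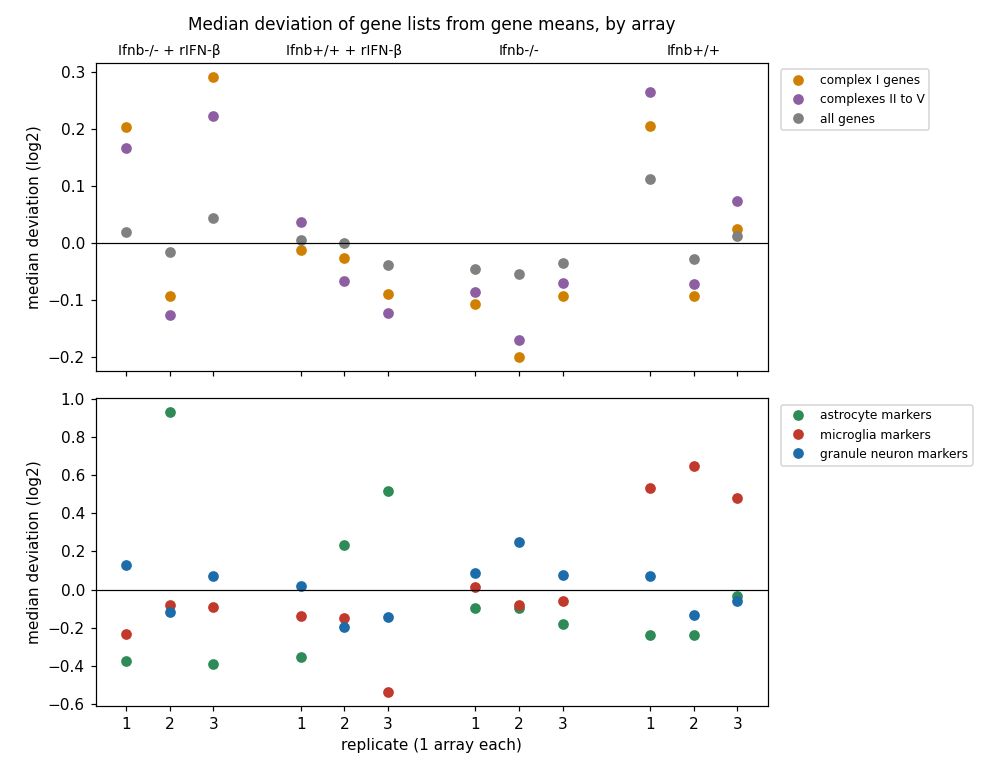
Median deviation from gene means on the log2 scale for each array, for complex I genes (35), genes of complexes II to V (37) and all genes in the upper panel, and for markers of astrocytes, microglia and granule neurons in the lower panel. Complex I and complexes II to V are highest in replicates 1 and 3 of Ifnb-/- with rIFN-β and in replicate 1 of untreated Ifnb+/+, and the astrocyte markers peak in replicate 2 of Ifnb-/- with rIFN-β.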

How the data were processed

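Each of 12 CGN cultures was measured on its own Affymetrix mouse genome array. The authors applied RMA with quantile normalization in Arraystar and deposited log2 intensities of 45037 probe sets. Quantile normalization gives all arrays nearly the same distribution, so a shift shared by most genes would be reduced. Probe sets were joined to symbols through the platform annotation, and those naming several genes (932) or none (9160) were left out. Depth has no meaning for arrays, and the number of arrays limits the precision.

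Groups came from the sample titles. limma 3.58.1 in R 4.3.3 estimated 4 group means from all arrays (residual degrees of freedom: 8), with empirical Bayes moderation, in place of the t-test of the methods. The members and lists were chosen with earlier results of these data known. Named with full values were members that were called, the 4 with the smallest p in each of 5 pairwise comparisons, the brightest, the dimmest, Ndufa4 and Ndufa4l2. Other genes named were chosen after their values were seen. Lists are given by counts and medians, with no test. The fit was tested on simulated data. Promoter sequences were those of RefSeq, and chromosomes came from the same build. Each result was recomputed with probe sets averaged per gene or tested singly, without genes whose mean was under 5, after a further round of quantile normalization, after median centring, with array weights, with trended and robust variances, from the arrays of the compared groups alone, with a block for the replicate number, by the methods' t-test, with the members changed and without each array in turn.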

Additional observations from a re-analysis of the deposited data

How the results depend on the processing

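The values of the named members kept their direction in all 420 refits, and 28 of these passed. In many refits the fold change could not move, since only the variance changed or an array of a group not compared was left out. Of the 28, 17 came from settings other than a left-out array, which were the array weights and the compared groups alone. The medians over the 35 genes kept their sign, with the same limit. Among calls, array weights gave 28 for the untreated genotypes (80.0%, against 59.8% of all genes), 12 for rIFN-β in Ifnb+/+ (34.3%, against 30.8%), 25 with rIFN-β in Ifnb-/- (71.4%, against 28.1%), 19 between Ifnb-/- with rIFN-β and untreated Ifnb+/+ (54.3%, against 42.1%) and 22 for the interaction (62.9%, against 34.6%). The estimation of these weights stopped before it converged and gave replicate 3 of untreated Ifnb+/+ a weight of 5736, against 0.0986 to 1.66 for the others. From the arrays of the compared groups alone, 1 was called with rIFN-β in Ifnb-/-. With Ndufs5 added, 1 was called between the untreated genotypes, 1 between the genotypes with rIFN-β and 1 between Ifnb-/- with rIFN-β and untreated Ifnb+/+. Each time this was Ndufs5 itself, and it was lower in Ifnb-/-. That is 2.78% of the then 36 genes, against 0.115%, 0.0605% and 1.86% of all genes. The absence of calls in the main fit therefore holds for the 35 genes without Ndufs5. Leaving out 1 array gave 0 to 11 calls for the untreated genotypes, 0 to 6 for rIFN-β in Ifnb+/+, 0 to 1 with rIFN-β in Ifnb-/-, 0 between the genotypes with rIFN-β, 0 to 5 between Ifnb-/- with rIFN-β and untreated Ifnb+/+ and 0 to 3 for the interaction. At these maxima 21.1%, 16%, 1.1%, 6.15% and 6.8% of all genes were called where any member was. The medians then ranged from −0.29 to −0.12, −0.15 to −0.03, 0.18 to 0.38, 0.10 to 0.29, 0.00307 to 0.20 and 0.25 to 0.49 in these comparisons. The other alternatives gave 0 calls.

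Whether the replicate number pairs the arrays was not settled, and the main fit did not use it. Deviations of same-numbered arrays from their group means correlated between −0.50 and 0.43, over 0.1 in 5 of 18 pairs. For arrays of other numbers the range was −0.58 to 0.57, over 0.1 in 5 of 36 pairs, which does not decide the question. With the replicate block 0 members were called. At an unadjusted p under 0.05 there were 12 for the untreated genotypes, where the main fit had 10. For rIFN-β there were 12 in Ifnb-/- (main fit 8) and 4 in Ifnb+/+ (main fit 2). With the methods' t-test these 3 numbers were 2, 7 and 1, and 0 after adjustment. How many of all genes passed that p with the block or the t-test was not counted. These numbers therefore do not show a gain or loss particular to complex I. With Ndufa11, Ndufs6 and Ndufb4 read together with their near-identical copies, an alternative chosen after seeing the data, 0 of the then 37 genes were called, and the median over the 37 was −0.22 between the untreated genotypes.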
